A study of Mus musculus with 18 samples.

Results

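Of the genes switched on when *Tsix*-stop mouse embryonic stem (ES) cells were differentiated, 35 reached about the wild-type (wt) level in both libraries labelled *Kdm6a* knockout (KO). They were chosen from CPM (each count scaled by its library's total). A gene counted as induced when its mean was at least 20 CPM in wt at day 15 (D15) and at least 8 times the wt day 0 (D0) mean plus 0.1. It counted as kept when the KO D15 mean was between 0.8 and 1.5 times the wt D15 mean and each KO D15 library was at 0.7 or more of that mean. Of 24346 genes, 509 were induced. Genes of the *Hox*, *Rhox*, *Wnt*, *Fgf* and collagen families, 21 in all, were set aside by name, and 1 of them, *Rhox9*, lay in the band. This left 488 induced genes, of which 35 (7.17%) were in the band, 443 (90.8%) were below it, 6 were above it, and 4 had a mean in the band but 1 KO library under 0.7. The levels in *Tsix*-stop wt D0, wt D15 and KO D15 chose these genes, so they are given as a description without a test.

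*Tsix*-stop cells are hybrid female ES cells (strain-129 × *cast*) that carry a transcriptional stop in the strain-129 copy of *Tsix*, in wt, KO and control libraries alike. The libraries labelled *Kdm6a* knockout came, per the study's methods, from 2 clones in which CRISPR/Cas9 removed exons of *Kdm6a*, the X-linked H3K27me3 demethylase. There were 2 libraries each of wt and KO at D0 and D15, and 1 library of a CRISPR control at each day. The labels call the latter a control, whereas the names under which its tables were deposited number it as a KO replicate, so its identity is in doubt and its values are those of the library labelled CRISPR control. E8 cells are a second hybrid female line (BL6 × *cast*), with 2 wt and 2 KO libraries at D7 and at D15, and their methods describe a deletion of the *Kdm6a* promoter in 1 clone. Cells were grown on feeders with LIF and differentiated as embryoid bodies without it. The labels number the libraries but do not say which clone or culture each came from, so p-values in E8 measure the spread between these libraries, which may be technical.

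*Kdm6a* was measured first as a check of the labels. In E8 it was at 46.7 to 47.8 TPM (transcripts per unit of exon length, scaled to the same total in every library) in the 4 wt libraries and at 0.0319 TPM or less in the 4 KO libraries. In *Tsix*-stop at D15 it was at 143 and 114 CPM in wt, against 97.6 and 29.8 CPM in KO and 100 CPM in the CRISPR control. The gene-level count also covers exons outside the deletion, so it does not check the *Tsix*-stop labels. The 10 *Tsix*-stop libraries held 51091152 to 68796179 counts each, and the E8 tables give TPM with no depth. The D15 library labelled CRISPR control differed from wt in some marker sums and not in others. Its summed CPM over 12 fibroblast markers was 428, against 6881 and 7377 in wt and 599 and 782 in KO. Its summed CPM over 12 visceral endoderm markers was 27.7, against 622 and 650 in wt and 29.9 and 51.5 in KO, with all 12 genes of both lists above 0 in each of these groups. Its sum over 10 parietal endoderm markers was 1715 CPM, against 4108 and 4432 in wt and 981 and 1246 in KO. Its sum over 12 pluripotency markers was 3826 CPM, within the 3382 and 3846 of wt and below the 5170 and 6468 of KO. Its sum over 10 trophoblast markers was 248.7 CPM, above the 186 and 193 of wt and the 101 and 181 of KO. E8 wt libraries held 13966 to 18201 summed TPM of the pluripotency markers and 20.9 to 27.6 TPM of the visceral endoderm markers. E8 KO libraries held 4910 to 8404 TPM and 348 to 1485 TPM. In TPM, the *Tsix*-stop wt pluripotency sums were 13945 and 14739 at D0 and 9596 and 10490 at D15. Their fibroblast sums were 39.9 and 40.8 TPM at D0 and 3103 and 3475 TPM at D15. E8 wt D15 held 31.7 and 33.9 TPM of the fibroblast markers. By these sums E8 wt D15 was nearer *Tsix*-stop wt D0 than wt D15. The TPM of the lines was made in different ways, and the state of the E8 cells was not tested.

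Epithelial cells are built around an apical surface, lateral junctions and a basal contact with matrix. Polarity complexes mark the apical side, desmosomes and other junctions hold neighbours together, and adaptor complexes sort proteins to each face. Signals through receptor tyrosine kinases run along the ERK branch of the MAP kinase pathway, which switches on its own inhibitors, the DUSP phosphatases among them. The 35 genes were sorted by role after the values were seen, so the roles below describe the group and support nothing.

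The in-band genes lay in the upper tail of the KO over wt ratios of the induced genes. All induced genes were chosen by being high in wt D15, with no condition on KO. Such a choice tends to lower that ratio, by an amount not measured here. The KO over wt ratio had a median of 1.01 in the 35 in-band genes, 0.345 in the 453 out-of-band induced genes and 1.01 in the 8307 genes at 20 CPM or more in wt D15. Of the latter, 66.7% had a mean ratio in the band. Just inside the lower edge were *Cln6* (0.805), *Tnk1* (0.831) and *Pkp3* (0.845), and just outside it *Gramd3* (0.798), *Id2* (0.791) and *Bhlhe41* (0.787). Just inside the upper edge were *Gchfr* (1.49), *Arhgef28* (1.49) and *Bspry* (1.34), and just outside it *Atp10a* (1.59), *Aire* (1.61) and *Foxp1* (1.61). The 4 genes lost to a low library were *Cav1*, *Ccdc136*, *Klc3* and *Sema3e*. At the far low end, *Apoa1*, *Ttr*, *Lum*, *Ptn* and *Frem1* had ratios of 0.0256 to 0.0283. *Enpp3* (2.65), *Spry4* (1.99) and *Slc39a14* (1.94) had the highest ratios. The number in the band depended on the libraries: without KO replicate 1 it was 58, of which 32 were among the 35, and it was 36, of which 23 were, when wt also held the CRISPR control.

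**Figure D1:**
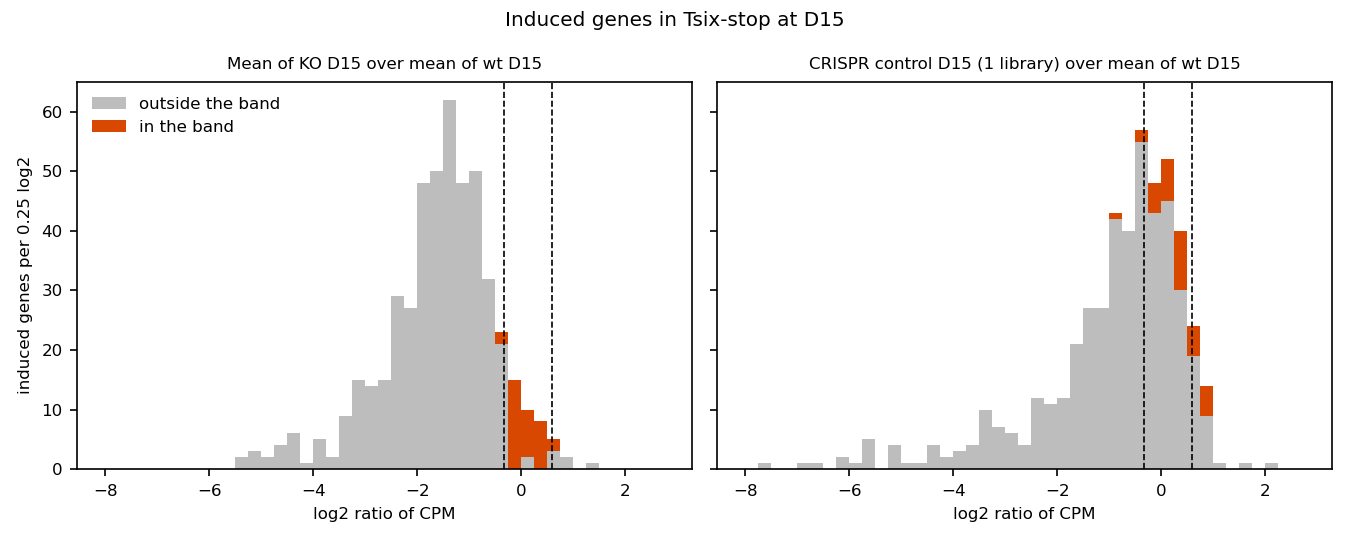
Number of induced *Tsix*-stop genes by the log2 ratio of CPM at D15, for the KO mean over the wt mean (left) and for the CRISPR control library over the wt mean (right). Dashed lines mark ratios of 0.8 and 1.5. The 35 in-band genes (orange) had a median ratio of 1.01 on the left and 1.22 on the right, against 0.345 and 0.648 for the 453 genes outside the band (grey).

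*Esrp1*, which directs epithelial splicing, was the most strongly induced of the 35 genes. It was at 0.625 and 0.904 CPM in wt D0, 108 and 109 CPM in wt D15, and 104 and 130 CPM in KO D15, a 125-fold induction in wt. The wt and KO libraries of D15 overlapped.

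Genes of junctions, polarity and sorting, along with a receptor kinase, a Notch ligand and a flippase subunit of the cell surface, formed a group of 8, with ratios from 0.845 to 1.14. *Ap1m2*, the medium chain of the epithelial clathrin adaptor AP-1B, was at 45.9 and 54.0 CPM in wt D15 and 55.3 and 58.5 CPM in KO D15, after 1.38 and 2.61 CPM in wt D0. *Crb3*, a Crumbs protein of the apical membrane, was at 28.5 and 34.6 CPM in wt D15 and 30.03 and 29.7 CPM in KO D15. *Epha1*, an ephrin receptor tyrosine kinase, was at 25.8 and 28.4 CPM in wt D15 and 19 and 27.9 CPM in KO D15, a 73.9-fold induction in wt. KO overlapped wt for *Crb3* and *Epha1*, and both KO libraries were higher for *Ap1m2*. *Pkp3*, a desmosomal plaque protein, and *Ppl*, a plakin that links junctions to keratin filaments, had ratios of 0.845 and 0.957. *Lad1*, an anchoring filament protein, had a ratio of 1.13. *Jag2*, a Notch ligand, and *Tmem30b*, a partner subunit of lipid flippases, had ratios of 0.901 and 1.03.

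The position and the upstream sequence of 4 of these genes are shown because they had the largest E8 D15 differences among in-band genes with a promoter entry. Coordinates are GRCm38, genes from GENCODE vM21 and promoters from RefSeq (GRCm38.p6). *Epha1* spans chr6:42358487-42373268 (minus strand), *Ap1m2* chr9:21294275-21312337 (minus), *Dusp6* chr10:99263231-99267489 (plus) and *Crb3* chr17:57059105-57065918 (plus). All 4 are protein-coding. Each line is the 250 bases before the outermost RefSeq start, 5′ to 3′ on the gene's strand, and capitals mark the E-box CACCTG or its reverse complement CAGGTG.
Epha1 (chr6:42373269-42373518): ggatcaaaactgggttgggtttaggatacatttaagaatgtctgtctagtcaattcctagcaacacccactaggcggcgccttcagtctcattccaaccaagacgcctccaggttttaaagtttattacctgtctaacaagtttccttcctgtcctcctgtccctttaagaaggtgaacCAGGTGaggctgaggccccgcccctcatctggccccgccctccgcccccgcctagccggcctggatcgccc
Ap1m2 (chr9:21312334-21312583): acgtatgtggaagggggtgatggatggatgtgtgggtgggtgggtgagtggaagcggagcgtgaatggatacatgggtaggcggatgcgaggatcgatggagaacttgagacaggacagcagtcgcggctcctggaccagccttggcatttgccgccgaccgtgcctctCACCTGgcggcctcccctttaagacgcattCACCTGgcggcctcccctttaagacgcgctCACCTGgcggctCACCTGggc
Dusp6 (chr10:99262981-99263230): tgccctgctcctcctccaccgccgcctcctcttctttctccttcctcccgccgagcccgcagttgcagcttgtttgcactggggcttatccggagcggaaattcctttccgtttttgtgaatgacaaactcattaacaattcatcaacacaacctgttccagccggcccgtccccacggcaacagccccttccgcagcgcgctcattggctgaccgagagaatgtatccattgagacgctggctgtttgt
Crb3 (chr17:57061951-57062200): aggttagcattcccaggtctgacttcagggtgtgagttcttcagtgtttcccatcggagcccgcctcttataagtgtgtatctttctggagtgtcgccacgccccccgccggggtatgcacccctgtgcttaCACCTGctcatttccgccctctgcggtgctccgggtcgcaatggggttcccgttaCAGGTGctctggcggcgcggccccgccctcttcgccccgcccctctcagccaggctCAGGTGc
The E-box stood 4 times in the *Ap1m2* window, 3 times in that of *Crb3* and 1 time in that of *Epha1*, and *Dusp6* had 0. The *Crb3* window ends at the outer of 2 RefSeq starts and lies inside the GENCODE span of the gene.

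Members of the MAP kinase pathway were 5 of the 35, with ratios from 0.979 to 1.25. *Dusp4*, a nuclear ERK phosphatase, was at 1.18 and 1.53 CPM in wt D0, 53.3 and 56.8 CPM in wt D15 and 52.3 and 67.1 CPM in KO D15. *Dusp6*, a cytoplasmic ERK phosphatase, was at 48.8 and 42.8 CPM in wt D15 and 45.2 and 69.01 CPM in KO D15. *Etv4*, an ETS transcription factor, was at 26.7 and 29.4 CPM in wt D15 and 27.1 and 41.6 CPM in KO D15. For all 3 the wt and KO libraries overlapped, and KO replicate 2 was the higher KO library. *Mapk13* and *Mapk12*, the p38 delta and gamma kinases, had ratios of 1.17 and 0.979.

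Other signalling genes were 8 of the 35. *Grb7*, an adaptor of receptor kinases, was at 72.7 and 87.5 CPM in wt D15 and 101 and 93.8 CPM in KO D15, with both KO libraries higher. *Ptk2b*, a cytoplasmic kinase related to focal adhesion kinase, was at 46.6 and 48.7 CPM in wt D15 and 44.2 and 49.8 CPM in KO D15. *Maff* (a small Maf factor), *Stk39* (a kinase of ion cotransporters), *Tnk1* (a non-receptor tyrosine kinase), *Fam83g*, *Arhgef28* (a guanine nucleotide exchange factor) and *Bspry* had ratios from 0.831 to 1.49.

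Genes of membrane traffic, transport and metabolism were 9 of the 35. *Cln6*, an endoplasmic reticulum protein needed for lysosomal function, was at 107 and 109 CPM in wt D15 and 75.8 and 98.3 CPM in KO D15. Both KO libraries of *Cln6* were below both wt libraries. *Serinc5*, a multipass membrane protein, was at 101 and 89.8 CPM in wt D15 and 88.9 and 93.5 CPM in KO D15. *Ndufa4l2*, a relative of a mitochondrial respiratory subunit, had the highest level per length of the group, a mean of 227 TPM in wt D15, and was at 60.5 and 74.8 CPM in wt D15 and 107 and 69.1 CPM in KO D15. *Sft2d2* and *Snx21* (vesicle and endosome traffic), *Atp6v0a4* (a proton pump subunit), *Gchfr* (the feedback regulator of tetrahydrobiopterin synthesis), *Azin2* (a regulator of polyamine synthesis) and *Chst11* (a chondroitin sulfotransferase) had ratios from 0.899 to 1.49. The remaining 3 genes were *Aif1l*, which binds actin (ratio 1.01), *Ttc21b*, a subunit of ciliary transport (1.30), and *Ybx2*, a germ cell RNA-binding protein (0.960).

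**Figure D2:**
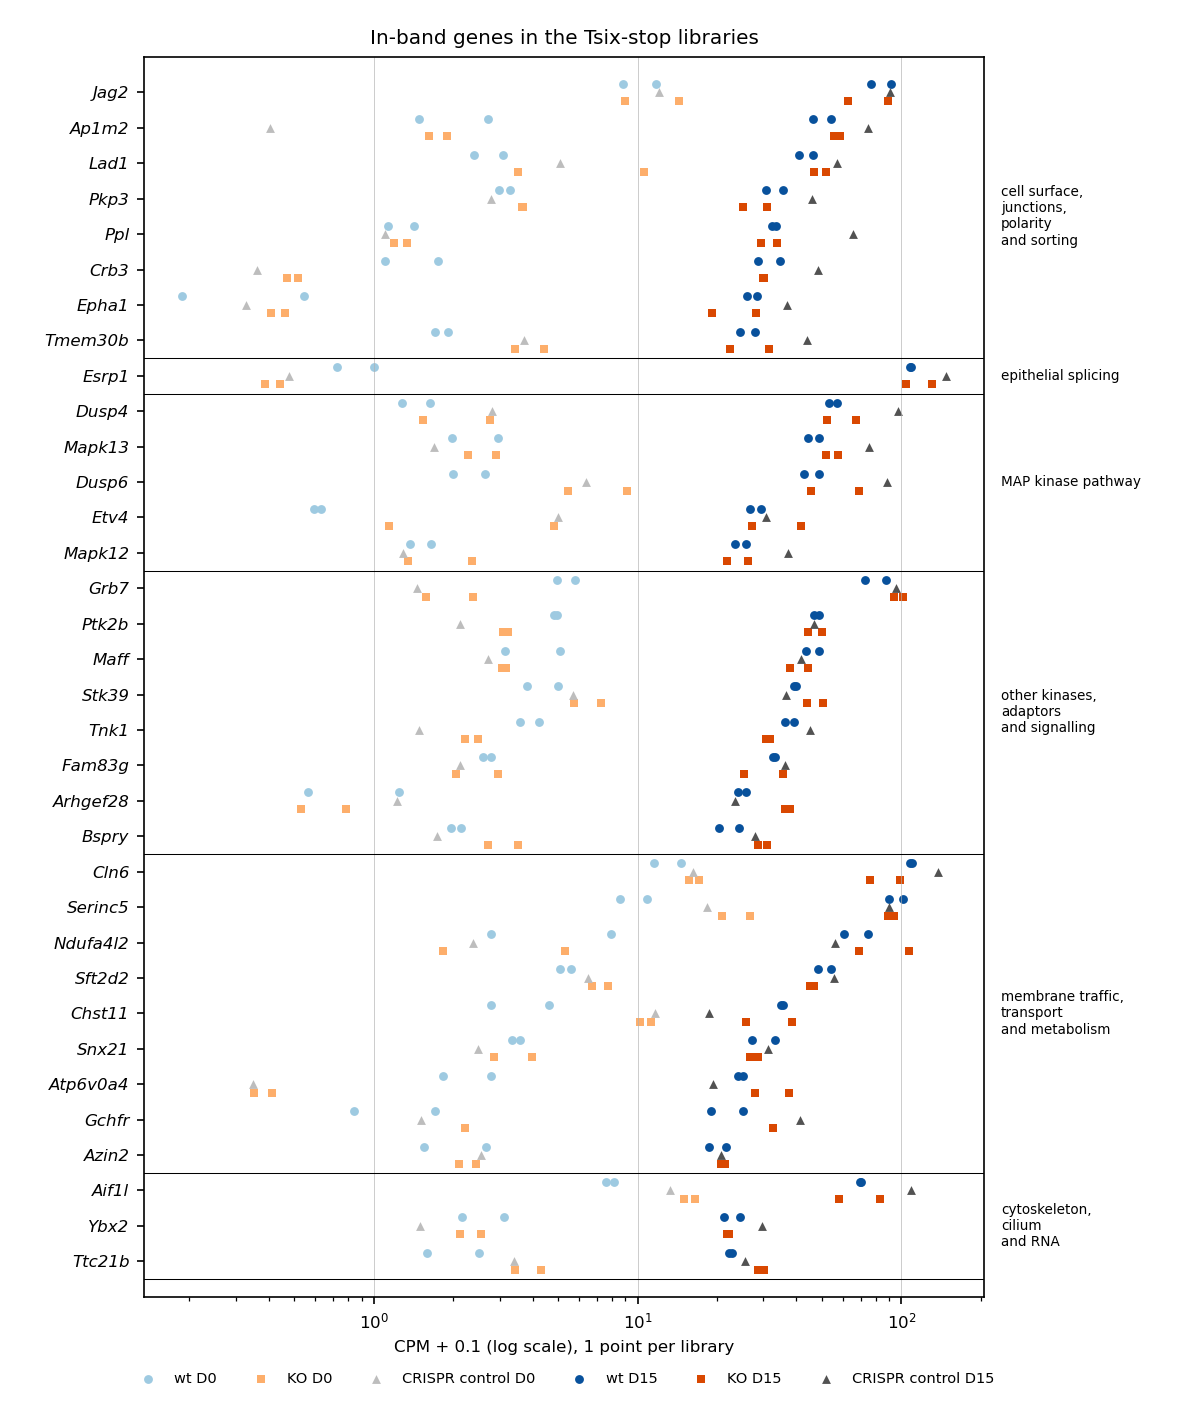
CPM plus 0.1 on a log axis for 34 of the 35 in-band genes, 1 point per *Tsix*-stop library, with genes grouped by role. The D15 points of *Esrp1* lie above 100 CPM, the farthest from their D0 points. The D15 squares (KO) and circles (wt) sit close together for every gene, as the rule required, while the D0 points of *Etv4* and *Atp6v0a4* are apart.

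Per length, the median level of the 35 genes was near that of the 453 out-of-band genes. Their range was narrower, as a range over fewer genes tends to be. The wt D15 mean ran from 8.91 to 227 TPM (median 34.8), against 4.04 to 22176 TPM (median 37.3) in the out-of-band genes. Induction in wt ran from 8.17-fold to 125-fold (median 11.2), against a median of 21.7 out of the band, and 8 in-band genes were induced 20-fold or more. By mean, 17 of the 35 were lower in KO than in wt and 18 were higher. Replicate 1 of KO was the higher KO library for 14 of 35 in-band genes and for 55 of 453 out-of-band genes. In the edgeR fit, all 35 were called higher in KO D15 than in KO D0 (false discovery rate of at most 0.1 and at least 2-fold), and 0 lower (0 also at an unadjusted p under 0.05), where 19.7% and 7.87% of tested genes were. In KO against wt at D15 0 were called in either direction by the same fit, and 0 had an unadjusted p under 0.05, where 3.89% of tested genes were called higher and 11% lower. Both KO D15 libraries were above both wt D15 libraries for 10 of the 35 (39.0% of tested genes) and below them for 4 (35.3%). Of the out-of-band genes 345 were called lower and 1 higher. Since the rule used these D15 libraries, nothing is read from those counts.

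The D15 library labelled CRISPR control, whose identity is in doubt, was not used by the rule, although the wt D15 libraries it is set against were. With 1 library a day there is no replicate and no test. Its ratio to the wt mean had a median of 1.22 (0.529 to 2.00) over the 35 in-band genes and of 0.648 over the out-of-band genes. None of the 35 was past 2-fold in either direction with 0.1 CPM added to both sides, where 7.47% of tested genes were past 2-fold lower and 2.25% past 2-fold higher. Of the 453 out-of-band genes, 166 (36.6%) were past 2-fold lower and 3 were past 2-fold higher. The highest ratios in the band were those of *Ppl* (65.5 CPM in the control, ratio 2.00), *Dusp6* (88.0 CPM, 1.92) and *Gchfr* (41.3 CPM, 1.88). The lowest were those of *Chst11* (18.6 CPM, 0.529), *Atp6v0a4* (19.1 CPM, 0.783) and *Ndufa4l2* (55.7 CPM, 0.823). Between D0 and D15 the control library rose by a median of 17.0-fold over the 35 genes, against 12.1-fold in KO. The low fibroblast, visceral and parietal endoderm sums of this library stand beside these values, and their part was not tested.

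Reaching the wt level at D15 did not mean starting from it. At D0, KO exceeded wt for 6 of the 35 genes called and lay under it for 5 called by edgeR's quasi-likelihood test, where 3.09% and 4.98% of 13121 tested genes were called higher and lower. The wt D0 libraries entered the rule, so these calls are a description. *Etv4* was at 0.494 and 0.533 CPM in wt, against 1.04 and 4.71 CPM in KO. *Dusp6* was at 1.90 and 2.53 CPM in wt, against 5.36 and 8.99 CPM in KO, and *Chst11* at 4.52 and 2.68 CPM in wt, against 10.1 and 11.2 CPM in KO. Among those lower in KO, *Atp6v0a4* was at 1.74 and 2.68 CPM in wt, against 0.312 and 0.251 CPM in KO. *Crb3* was at 1.00 and 1.65 CPM in wt, against 0.416 and 0.371 CPM in KO. For each of these 5 genes the D0 library labelled CRISPR control, which may be a KO library by its deposited name, was on the KO side of both wt libraries, at 4.89 CPM for *Etv4*, 6.27 CPM for *Dusp6*, 11.5 CPM for *Chst11*, 0.25 CPM for *Atp6v0a4* and 0.262 CPM for *Crb3*. Over all 35 genes, 4 were past 2-fold higher in the control than in wt at D0 and 8 past 2-fold lower, where 3.7% and 5.94% of tested genes were. With the control counted as wt, edgeR called 0 of the 35 at D0 in either direction (3 higher and 3 lower at an unadjusted p under 0.05), and 20 genes over the whole table.

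E8 gave a measurement in libraries that the rule did not use. At D15 the in-band genes were mostly higher in E8 KO than in E8 wt. By limma on log2(TPM + 1), 9 of the 35 were called higher and 0 lower at a false discovery rate of at most 0.1 and at least 2-fold, where 7.67% of 12452 tested genes were called higher and 3.08% lower. At an unadjusted p under 0.05 with no fold limit, 30 were higher and 2 lower, where 5675 and 3701 of the 12452 tested genes were. Both KO libraries were above both wt libraries for 31 of the 35 (52.0% of tested genes) and below them for 3 (35.2%). The median difference of the 35 genes was 0.62 on the log2(TPM + 1) scale, against 0.09 over all tested genes. The out-of-band induced genes had a median of 1.43, and 273 of the 420 tested were called higher and 1 lower. When libraries were rescaled to the same median gene, the medians were 0.48 in the band, 1.31 outside it and -0.05 over all genes. In that setting 6 in-band genes were called higher and 0 lower, where 802 and 531 of all tested genes were. The share of all calls that were higher went from 71.4% to 60.2%.

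Of the 8 in-band genes of the cell surface, junctions, polarity and sorting, 3 were called higher in E8 KO at D15, and the other 5 had differences of 0.31 to 0.98. *Epha1* was at 6.01 and 7.08 TPM in wt and 22.1 and 22.4 TPM in KO, a difference of 1.63 ± 0.07 (log2, SE; limma adjusted p = 6.84e-07). *Ap1m2* was at 18.5 and 17.9 TPM in wt and 58.4 and 56.7 TPM in KO, a difference of 1.61 ± 0.05 (limma adjusted p = 2.2e-07). KO libraries of both genes were at about 3 times the wt level, and no KO library overlapped wt. *Esrp1* was at 14.6 and 15.7 TPM in wt and 33.4 and 33.9 TPM in KO, a difference of 1.10 ± 0.04 (limma adjusted p = 5.08e-07). *Crb3* was at 22.7 and 23.4 TPM in wt and 52.2 and 47.7 TPM in KO, a difference of 1.08 ± 0.05 (limma adjusted p = 1.52e-06). The E8 KO libraries also held more visceral endoderm marker RNA (348 and 350 TPM at D15, against 20.9 and 21.2 TPM in wt) and more of 10 trophoblast markers (272 and 276 TPM, against 40.9 and 45.1 TPM), with 7 of the 10 above 0 in wt and 8 in KO. The parietal endoderm markers summed to 1238 and 1260 TPM in KO, against 231 and 247 TPM in wt, with all 10 above 0 in both. The fibroblast markers summed to 103 and 104 TPM, against 31.7 and 33.9 TPM, with 12 of the 12 above 0 in KO and 11 in wt, and the pluripotency markers to 8190 and 8404 TPM, against 17361 and 18201 TPM. The part of these sums in the differences was not tested, and in such bulk samples fewer cells of a type and less RNA per cell cannot be told apart.

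*Dusp6* and *Dusp4* were the MAP kinase genes called higher in E8 KO at D15. *Dusp6* was at 25.7 and 27.6 TPM in wt and 68.4 and 67.5 TPM in KO, a difference of 1.32 ± 0.04 (limma adjusted p = 1.68e-07). *Dusp4* was at 42.8 and 47.6 TPM in wt and 104 and 102 TPM in KO, a difference of 1.17 ± 0.05 (limma adjusted p = 7.82e-07). *Etv4* went the other way without passing the 2-fold limit, at 31.9 and 34.9 TPM in wt and 22.8 and 22.5 TPM in KO. Also called higher were *Ptk2b* (5.22 and 5.60 TPM in wt, 13 TPM in both KO libraries, 1.13 ± 0.05) and *Serinc5* (11.7 and 12.3 TPM in wt, 26.1 and 26.01 TPM in KO, 1.05 ± 0.04). *Crb3*, *Esrp1* and *Serinc5* were under 2-fold after rescaling.

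**Figure D3:**
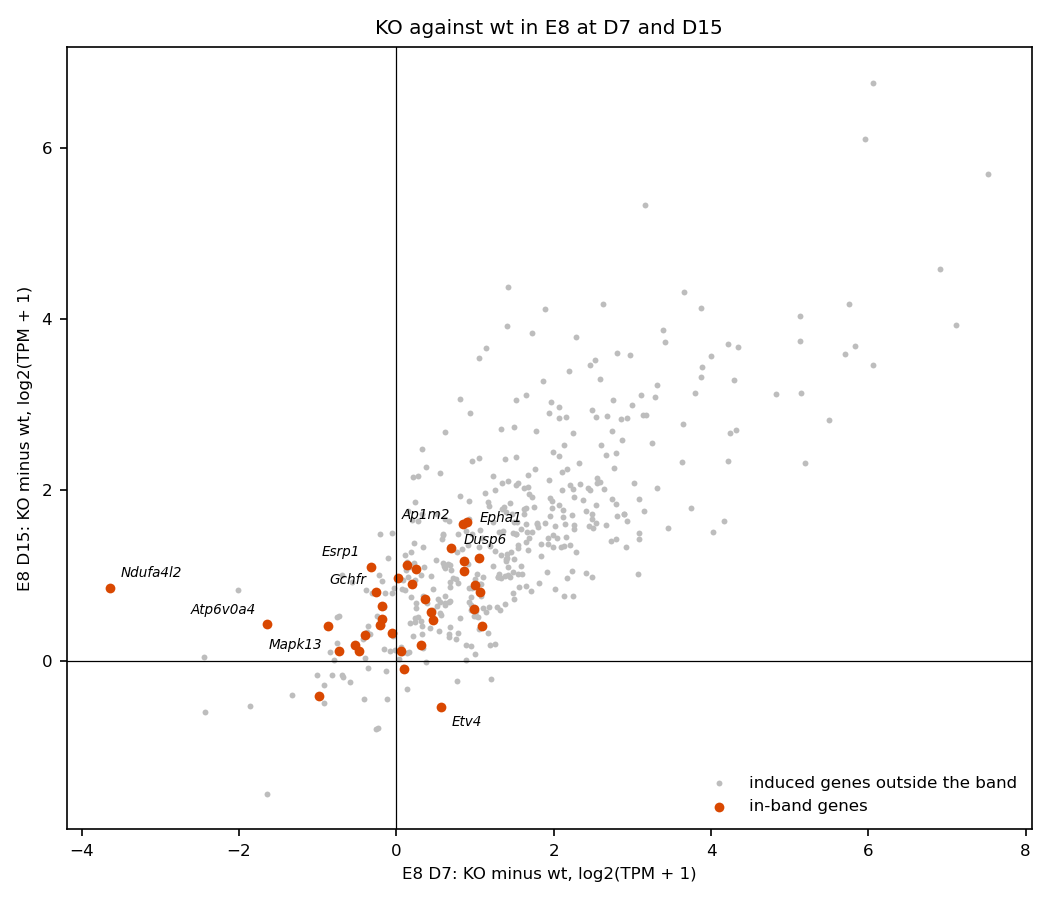
Difference between E8 KO and wt on the log2(TPM + 1) scale at D7 (horizontal) and D15 (vertical), 1 point per gene and the mean of 2 libraries a group. The 35 in-band genes (orange) had medians of 0.13 and 0.62, below those of the 420 tested out-of-band genes (grey), 1.38 and 1.43. *Ndufa4l2* and *Atp6v0a4* stand to the left of zero and above it.

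At D7 the in-band genes were split. By limma 4 of the 35 were called higher in E8 KO and 2 lower, where 11.4% and 6.18% of tested genes were, so the share called was near that of all genes. After rescaling to the same median gene 0 were called higher (14 at an unadjusted p under 0.05) and 4 lower. Over all tested genes 1043 were then called higher and 1142 lower. The medians were -0.06 in the band and -0.10 over all genes, and the share of all calls that were higher went from 64.7% to 47.7%. The median difference was 0.13, against 0.10 over all genes and 1.38 in the out-of-band induced genes. Both KO libraries were above both wt libraries for 19 of the 35 (52.6% of tested genes) and below them for 13 (37.8%). Among those called higher were *Arhgef28* (4.88 and 4.76 TPM in wt, 10.9 and 12.03 TPM in KO), *Cln6* (28.0 and 25.96 TPM, 59.98 and 54.9 TPM) and *Tnk1* (9.97 and 8.90 TPM, 20.7 and 19.1 TPM), with differences of 1.00 to 1.10. Without wt D7 replicate 2 only 2 genes were called higher, with *Tnk1* at 0.93 under the 2-fold limit, and without KO D7 replicate 1 *Cln6* (1.00) and *Tnk1* (0.95) were under it.

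*Ndufa4l2* had the largest E8 difference of the group. At D7 it was at 25.1 and 23.0 TPM in wt and 0.908 and 1.14 TPM in KO, a difference of -3.63 ± 0.08 (limma adjusted p = 2.43e-08). At D15 it was at 4.67 and 4.89 TPM in wt and 10.1 and 8.94 TPM in KO, so the order of the groups was the other way round. *Atp6v0a4* had the same directions, at 9.06 and 9.46 TPM in wt and 2.41 and 2.14 TPM in KO at D7, and at 4.46 and 4.73 TPM in wt and 6.93 and 6.21 TPM in KO at D15.

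The change of the KO effect from D7 to D15 was tested in the same fit. It was called higher at D15 for 5 of the 35 genes and lower for 1, where 3.89% and 3.36% of tested genes were. The 5 were *Ndufa4l2* (4.49 ± 0.12), *Atp6v0a4* (2.08 ± 0.10), *Esrp1* (1.43 ± 0.06), *Mapk13* (1.28 ± 0.06) and *Gchfr* (1.06 ± 0.09), and the 1 was *Etv4* (-1.11 ± 0.08), all on the log2 scale with limma adjusted p of at most 6.84e-05. *Mapk13* was at 46.3 and 43.9 TPM in wt D7, 34.0 and 35.4 TPM in wt D15, 24.05 and 24.6 TPM in KO D7 and 48.2 and 45.2 TPM in KO D15. *Etv4* rose in wt, from 22.5 and 20.6 TPM to 31.9 and 34.9 TPM, and was lower in KO at D15 than at D7, 22.8 and 22.5 TPM after 32.8 and 32.0 TPM, with neither change past the 2-fold limit. *Gchfr* was at 0.97, under the 2-fold limit, without KO D15 replicate 1. The median change of the KO effect was 0.62 over the 35 genes, 0.01 over the out-of-band genes and -0.03 over all genes.

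Induction between D7 and D15 was not seen for these genes in E8 wt. By limma 0 of the 35 were called higher at D15 than at D7 and 3 lower, where 0.586% and 0.819% of tested genes were. At an unadjusted p under 0.05 with no fold limit 9 were higher and 21 lower, where 3654 and 3437 of the 12452 tested genes were. The 3 called lower were *Ndufa4l2* (-2.11 ± 0.08), *Lad1* (-1.18 ± 0.07, from 29.3 and 28.8 TPM to 11.3 and 13.3 TPM) and *Esrp1* (-1.11 ± 0.04). In E8 KO 3 of the 35 were called higher at D15 and 0 lower, where 3.41% and 2.7% of tested genes were. The 3 called higher were *Ndufa4l2*, *Atp6v0a4* and *Ybx2*, the last from 13.3 and 13.2 TPM to 28.8 and 31.7 TPM. At an unadjusted p under 0.05, 22 of the 35 were higher and 7 lower, where 4336 and 4758 of the 12452 tested genes were. No E8 D0 library was analysed, so the level before differentiation is not known for this line.

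**Figure D4:**
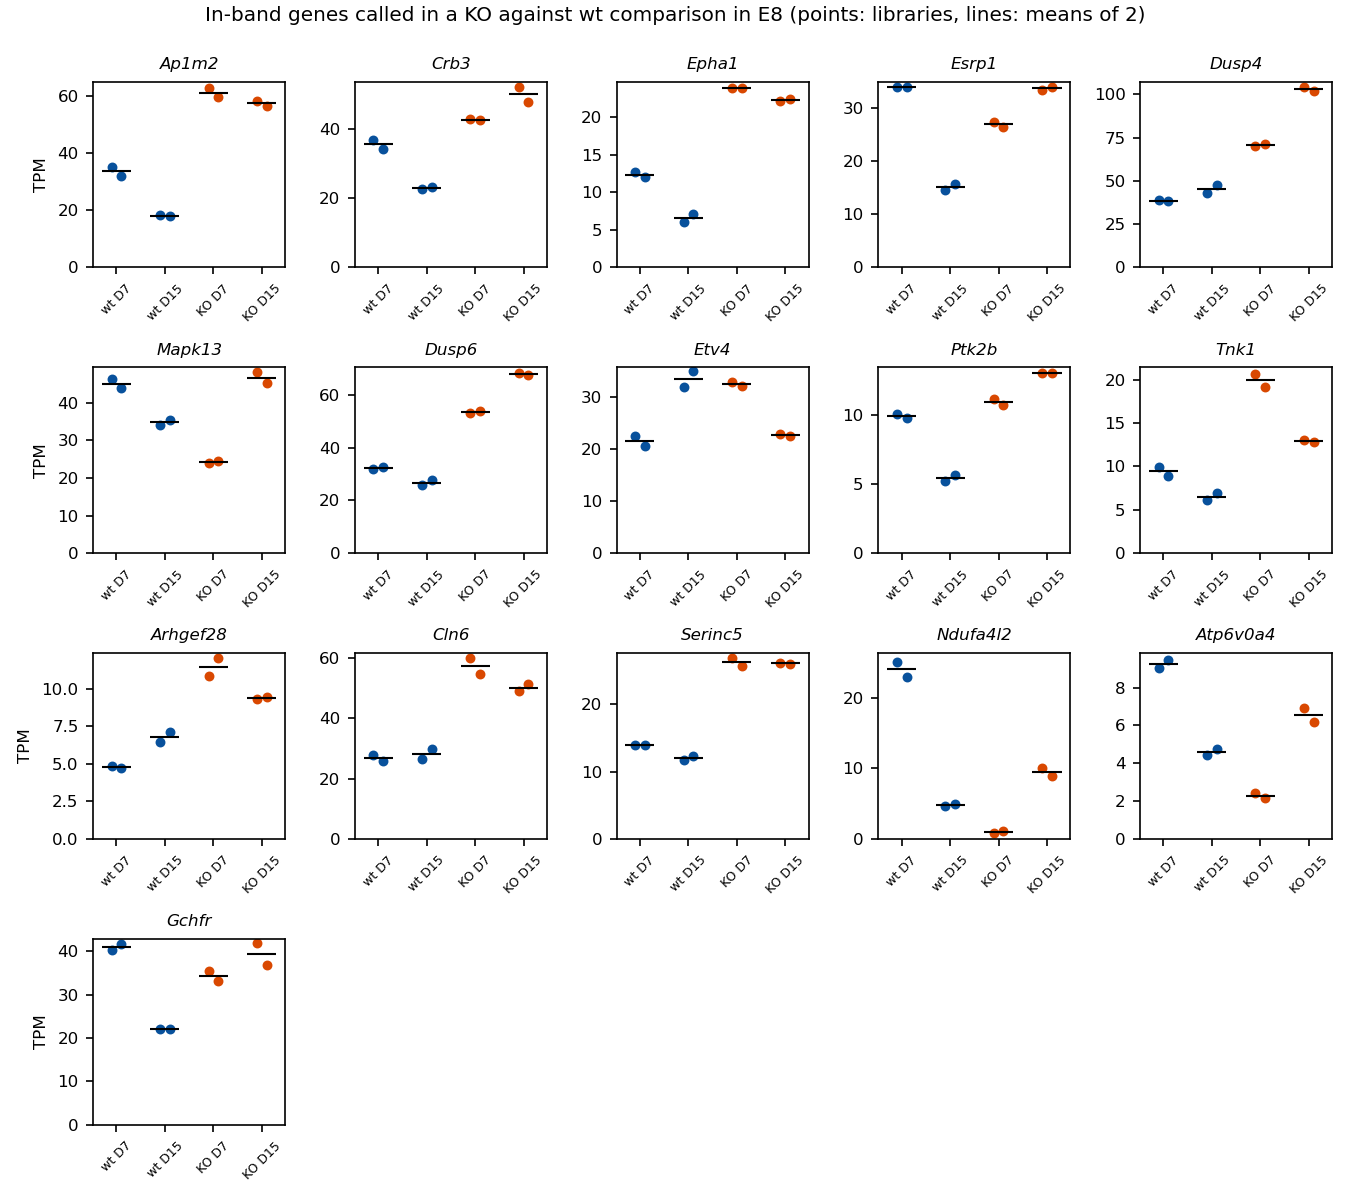
TPM in each E8 library (points) and mean of 2 libraries (lines) for 16 of the 17 in-band genes called in a KO against wt comparison at D7, at D15 or between them, with each vertical axis starting at 0. Wt is blue and KO orange. *Epha1*, *Ap1m2* and *Dusp6* were higher in KO on both days, while *Ndufa4l2* and *Atp6v0a4* were lower at D7 and higher at D15.

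Counts over 14 lists of genes with a known role are given as a description, since the lists were chosen with results known and the rule fixed the band, which held 7.17% of all 488 induced genes. The 14 role lists held 413 genes, of which 102 were induced, 100 were below the band, 1 (*Foxp1*) was above it, 1 had a low library, and 0 were in it. In the list of simple epithelial keratins and junction genes all 7 induced genes were below the band. *Krt8*, a simple epithelial keratin, was at 297 and 324 CPM in wt D15, 48.2 and 192 CPM in KO D15 and 499 CPM in the CRISPR control. *Cldn7*, a claudin of tight junctions, was nearest the band, at 69.2 and 74.5 CPM in wt, against 51.1 and 61.9 CPM in KO, a ratio of 0.786. The 2 KO libraries differed for the keratins, with replicate 1 the lower. Other genes of the list were at 20 CPM or more in wt D15 without being induced 8-fold. Among these, *Epcam* (ratio 1.16), *Tjp1* (0.957), *Cldn3* (0.888) and *Cldn4* (0.885) were near the wt level in KO D15. *Cdh1* (0.661), *Dsg2* (0.657), *Jup* (0.496) and *Dsp* (0.421) were lower. In E8 KO at D15, 9 of the 16 tested genes of this list were called higher by limma and 0 lower, where 7.67% and 3.08% of all tested genes were.

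A wider list of 44 epithelial genes and a list of 24 ERK feedback genes were written after the values were seen, so their counts describe the pathways and support nothing. Of the epithelial genes 15 were induced, 7 of them in the band (among them *Esrp1*, *Ap1m2*, *Crb3*, *Lad1*, *Ppl* and *Pkp3*) and 8 below it. The 8 were the 4 keratins *Krt7*, *Krt8*, *Krt18* and *Krt19*, the claudins *Cldn6* and *Cldn7*, the tight junction protein *Cgn* and the protease *Prss8*. Of the ERK feedback genes 8 were induced, 3 of them in the band (*Dusp4*, *Dusp6*, *Etv4*), 1 above it and 4 below it. *Spry4*, an inhibitor of ERK signalling, was the gene above, at 27.1 and 23.8 CPM in wt D15 and 34.9 and 66.4 CPM in KO D15. The immediate early genes *Egr1* and *Fos* were below, with ratios of 0.513 and 0.371, as were *Ier3* (0.669) and *Phlda1* (0.584).

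Reads carrying a SNP gave the share of each gene's reads that came from the pseudo-129 genome, a readout that the rule did not use. At D15 30 or 31 of the 35 genes had at least 20 such reads in each *Tsix*-stop library. The median pseudo-129 share over them was 51.9% and 51.7% for wt, 51.1% and 53.7% for KO and 53.9% for the control library, and none had a share of 90% or more or 10% or less. *Esrp1* was at 50.5% and 46.6% in wt (1286 and 1099 reads, 95% Wilson intervals 47.7% to 53.2% and 43.7% to 49.5%) and at 47.4% and 48.3% in KO, which overlapped wt. *Jag2* was at 37.4% and 37.7% in wt, against 49.0% and 50.7% in KO and 30.8% in the control, and *Tmem30b* at 40.2% and 38.9%, 45.8% and 54.0%, and 28.8%. These 2 genes lie on chromosome 12, and the median share over all tested genes of chromosome 12 was 38.2% and 39.1% in wt D15, 52.7% and 53.6% in KO D15 and 34.8% in the control. *Atp6v0a4* and *Epha1* lie on chromosome 6, whose median was 48% and 48.8% in wt D15 and 55.4% and 64.6% in KO D15. *Atp6v0a4* was at 42.0% and 41.6% in wt and 56.7% and 65.5% in KO. The median of chromosome 11, which held 5 in-band genes, was 45.3% and 45.7% in wt D15 and 51.6% and 51.5% in KO D15. That of chromosome 8 was 47.2% and 47.1% in wt D15 and 50.8% and 51.0% in KO D15. Shares of single genes differed on other chromosomes too. Of the 30 in-band genes with at least 20 such reads in all 4 wt and KO libraries at D15, the share was higher in both KO libraries than in both wt libraries for 12 and lower for 3, where 34.9% and 17.2% of 10851 autosomal genes tested were. Among them *Arhgef28* (chromosome 13) was at 60.1% and 64.2% in wt and 70.3% and 70.1% in KO, and *Ppl* (chromosome 16) at 34.8% and 42.1% in wt and 50% and 47.6% in KO, both chosen after their values were seen. The median of chromosome 13 was 50.8% and 50.6% in wt D15 and 51.0% and 52.3% in KO D15. That of chromosome 16 was 50.6% and 51.1% in wt D15 and 51.5% and 51.3% in KO D15. The part of these shares in the genes' levels was not tested. Intervals cover counting error only.

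The 35 genes were spread over 15 autosomes, with at most 5 on any 1 of them. Median exon length was 3805 bases, against 5167 bases in the out-of-band genes. RefSeq promoter windows (250 bases before to 50 after the outermost start) were matched for 25 of the 35 genes and 319 of the 453 out-of-band genes. Median GC content was 67% in the band, 62.7% outside it and 61.3% over the 9941 matched genes tested. The ratio of observed to expected CpG was 0.6 or more in 20 of the 25 (80%), in 52.0% of the out-of-band windows and in 72.9% of those of all tested genes. The E-box CACCTG, read on both strands, stood in 12 of the 25 windows (48%), in 54 of the 319 out-of-band windows (16.9%), in 17.9% of the windows of tested genes and in 20.05% of all 27025 windows. The 12 were those of *Ap1m2*, *Atp6v0a4*, *Bspry*, *Crb3*, *Epha1*, *Fam83g*, *Mapk12*, *Mapk13*, *Sft2d2*, *Tmem30b*, *Tnk1* and *Ybx2*. As background, CACCTG is the core bound by SNAI and ZEB repressors of epithelial genes, and a match here is a description of the sequence only. The other motifs searched on both strands were TGANTCA (0 of 25, 4.58% of tested genes), TATAAA (2 of 25, 6.71%), AACNNGTT (2 of 25, 3.30%), CCGGAAG (3 of 25, 17.7%) and GGGCGG (19 of 25, 65.7%). In all 6 motifs were searched and none was tested.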

How the data were processed

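RNA-seq libraries (TruSeq RNA V2, a kit that does not mark strand) of *Tsix*-stop and E8 cells were used. Per the study's methods, genomes of the parental strains were made from mm10, and only uniquely mapped reads of high mapping quality were kept. Days D7 and D15 of E8 come from the labels, whereas the methods describe only days before D7 for E8 RNA-seq. The submitters' processing notes name Bowtie2 2.4.5 and TopHat2 2.1.1. For *Tsix*-stop, the authors deposited expected counts per gene, of which the column of the pseudo-129 genome was used (7.10% of its values not whole, rounded for tests), with SNP-read counts for both alleles. For E8, the authors deposited TPM, of which the column of the BL6 genome was used, and 537 duplicated symbols were summed. Depth is therefore known for *Tsix*-stop alone.

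Exon lengths and coordinates came from GENCODE vM21 by symbol (23984 of 24346 matched). Counts were tested with edgeR 4.0.16 (quasi-likelihood, TMM, genes at 2.5 CPM in at least 2 libraries) and TPM with limma 3.58.1 (trend, log2(TPM + 1), genes at 2.5 TPM in at least 2 libraries), all groups of a line in 1 fit. P-values were adjusted over all tested genes by Benjamini-Hochberg. A fold change on the log2(TPM + 1) scale understates the change of low genes. Both scripts were tested on simulated data. The genes, the roles and the gene lists were chosen with earlier results of these data known. Genes named were the 20 with the highest wt D15 mean, those nearest the band edges, those with the largest called E8 changes, and the extremes of the CRISPR control and D0 ratios. Most other in-band genes were named as well, after their values were seen, and 1 of the 35 is counted but not reported here by name. Alternatives were DESeq2 1.42.0 and its size factors, other filters, pseudocounts and scalings, the replicate block, each library left out, and other thresholds of the rule. Of the 35 genes, 10 overlap another annotated gene, 8 of them on the opposite strand (*Atp6v0a4*, *Cln6*, *Crb3*, *Epha1*, *Fam83g*, *Ndufa4l2*, *Snx21*, *Tnk1*), whose reads cannot be told apart without strand. Allele-specific columns of E8 were not used here.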

Additional observations from a re-analysis of the deposited data

Results flagged for a closer look

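Each result here was picked because the KO effect differed between days or lines. In E8 the KO effect at D15 minus that at D7 passed the limma threshold for *Ndufa4l2* (4.49), *Atp6v0a4* (2.08), *Esrp1* (1.43), *Mapk13* (1.28), *Gchfr* (1.06) and *Etv4* (-1.11), on the log2 scale. Between lines the difference was not tested. At D15, *Cln6*, *Sft2d2* and *Tnk1* were lower in both *Tsix*-stop KO libraries than in both wt libraries and higher in both E8 KO libraries, where they differed from wt by 0.81, 0.48 and 0.89 (log2). *Stk39* went the other way, higher in *Tsix*-stop KO and lower in E8 KO, with a difference of -0.40 (log2). Of all 35 in-band genes, 4 were lower in *Tsix*-stop KO and higher in E8 KO, and 1 was the reverse. In both lines 9 were higher in KO and 0 lower, by the same measure. Of the 420 out-of-band induced genes tested in E8, 379 were lower in both *Tsix*-stop KO libraries and higher in both E8 KO libraries at D15. The rule placed these genes outside the band by their low *Tsix*-stop KO levels, so the *Tsix*-stop direction was fixed by the choice, and for the in-band genes too the rule used those libraries. Over all tested genes 35.3% were lower and 39.0% higher in both *Tsix*-stop KO libraries. In both E8 KO libraries 35.2% were lower and 52.0% higher. Groups of 2 libraries are too small to single out a library within a group.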

How the results depend on the processing

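The number of in-band genes was 53 with a floor of 10 CPM, 111 with an induction of 4-fold, 12 with one of 16-fold, and 31 to 58 with a library left out. At D0 in *Tsix*-stop, 1738 genes were called without a filter on low counts and 20 once wt included the CRISPR control, which left 0 in-band genes higher and 0 lower, against 1059 genes. Without the filter 3099 genes were called in *Tsix*-stop at D15, 7713 in wt and 5665 in KO between D0 and D15, against 1948, 4987 and 3618, and 1115 at D15 with the control added. In E8 at D7, rescaling to the same median gene left 0 in-band genes higher and 4 lower, with 1043 and 1142 over all tested genes. Leaving out a library gave 2 to 5 in-band genes higher. With a pseudocount of 0.1, 332 genes were called between D7 and D15 in E8 wt, against 175. Of 24 calls of single in-band genes in E8, none reversed over 288 alternative values and 13 fell below the threshold, 7 of them on rescaling. They came from KO against wt at each day, wt D15 against D7 and the change of the KO effect. Single calls in *Tsix*-stop and in E8 KO between days were not followed in this way. Leaving out *Mir703* and *Mir682*, which held 17.9% to 22.8% of E8 TPM, was added after seeing the data and kept the E8 in-band counts within 1.5 times.

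Replicate numbers do not mark a shared clone, culture or day in the labels. Deviations of same-numbered libraries correlated between -0.17 and 0.24 in *Tsix*-stop and between -0.34 and 0.27 in E8. With a replicate block 9 in-band genes were called higher in E8 KO at D15, 4 higher and 2 lower at D7, and 1046 genes at D0 in *Tsix*-stop. All 24 calls of single in-band genes followed in E8 held with the block.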
